A study of Arabidopsis thaliana with 208 samples.

Results

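GABI_868_E02 is an Arabidopsis thaliana line made by inserting T-DNA, the stretch that Agrobacterium transfers into plant chromosomes, and the response of its roots to the nitrate supply is described here. The libraries were chosen by their labels: all those of roots of this line at 1 mM KNO3 (4 libraries) and at 10 mM KNO3 (4 libraries), which make 16 of the 208 deposited samples of the series, because each library was sequenced in 2 runs. The 8 libraries of the line stand beside 96 others, which come from the wild type Col and from 11 further T-DNA lines, each again with 4 replicates at each concentration, and they serve only as the reference for the size of the response. All seedlings were 9 days old and grew on sterile plates with sucrose, and each replicate combined the seedlings of 2 plates. The KCl in the medium was the same at both concentrations, so potassium rose together with nitrate and their effects cannot be told apart. The labels describe this line by its name only and do not say which gene is interrupted. From general knowledge the insertion lies in MYB29, which encodes a transcription factor that activates the genes of aliphatic glucosinolate synthesis. Beyond the choice of gene lists and the reading of the MYB29 tags, nothing below depends on that. The line is 1 insertion event, and the labels report no second allele and no complemented plants. RNA was counted as tags near the 3′ ends of transcripts, and in such whole roots fewer cells of a type and less RNA per cell cannot be told apart.

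Nitrate is taken up by low- and high-affinity transporters, reduced to nitrite by nitrate reductase and to ammonium by nitrite reductase, and built into glutamine and glutamate. It is also a signal: transcription factors of the NLP family switch on uptake and assimilation genes and a set of repressors, among them the NIGT1/HRS1 and LBD37 to LBD39 proteins, which in turn damp the genes of nitrogen starvation. High-affinity transporters such as NRT2.4 and NRT2.5 are known as marks of nitrogen-starved roots.

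The reads on MYB29 (AT5G07690, chromosome 5, positions 2446669 to 2448584 on the plus strand of TAIR10.1) set the 8 libraries apart from the rest. At 1 mM its counts were 11, 10, 13 and 4 in replicates 1 to 4, and at 10 mM they were 21, 11, 9 and 11. In the other 96 libraries the count was 0 in 92 and never above 1. Every library of the line thus held tags of a gene that was at or near 0 elsewhere. A 3′ tag does not show whether a full transcript or a working protein is made, so these reads do not show the loss of the gene. They mark the 8 libraries as 1 set, and they check the identity of the line only if the insertion lies in MYB29. At these counts the gene did not pass the filter on low counts and was not tested between concentrations. MYB76, a close relative, had no count in these 8 libraries or in the other 96. MYB28, the other main activator of this pathway, was measured at 19.5, 14.7, 16.0 and 15.1 CPM (counts scaled to a common library size, with TMM factors) at 1 mM and at 13.97, 15.1, 20.8 and 24.2 CPM at 10 mM, with overlapping groups and an edgeR quasi-likelihood adjusted p of 0.575.

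The 8 libraries held 7111888 to 11410173 counts each, within the range of the whole series (3981966 to 13695037). Among them the first principal component took 53.5% of the variance and separated the concentrations, and the second took 12.0% and spread the 10 mM libraries, from replicate 1 at one end to replicate 4 at the other. Of 19664 nuclear genes tested, 3581 were called within the line, that is had a Benjamini-Hochberg adjusted p under 0.05 in edgeR's quasi-likelihood test, which is 18.2% of the genes tested. Of these 1743 rose (8.86%) and 1838 fell (9.35%) from 1 to 10 mM. Among the larger changes the falls were the more frequent: of the 1143 genes called with at least a 2-fold change (5.81%), 764 fell (3.89%) and 379 rose (1.93%). The median log2 change of all genes tested was 0.01. The 4 libraries of one concentration lay entirely above the 4 of the other for 3982 genes (20.3%). Each library of the line carried a strip number in its title, and the 8 numbers all differed, so no value within a strip can be given. With the strip as a further term in the fit over all lines, 4029 genes were called, 2945 of them among the 3581. In the series strips 4, 7 and 10 held libraries of both concentrations, and each other strip held a single concentration. Results with the strip, here and below, thus separate strip from nitrate only through those strips.

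**Figure D1:**
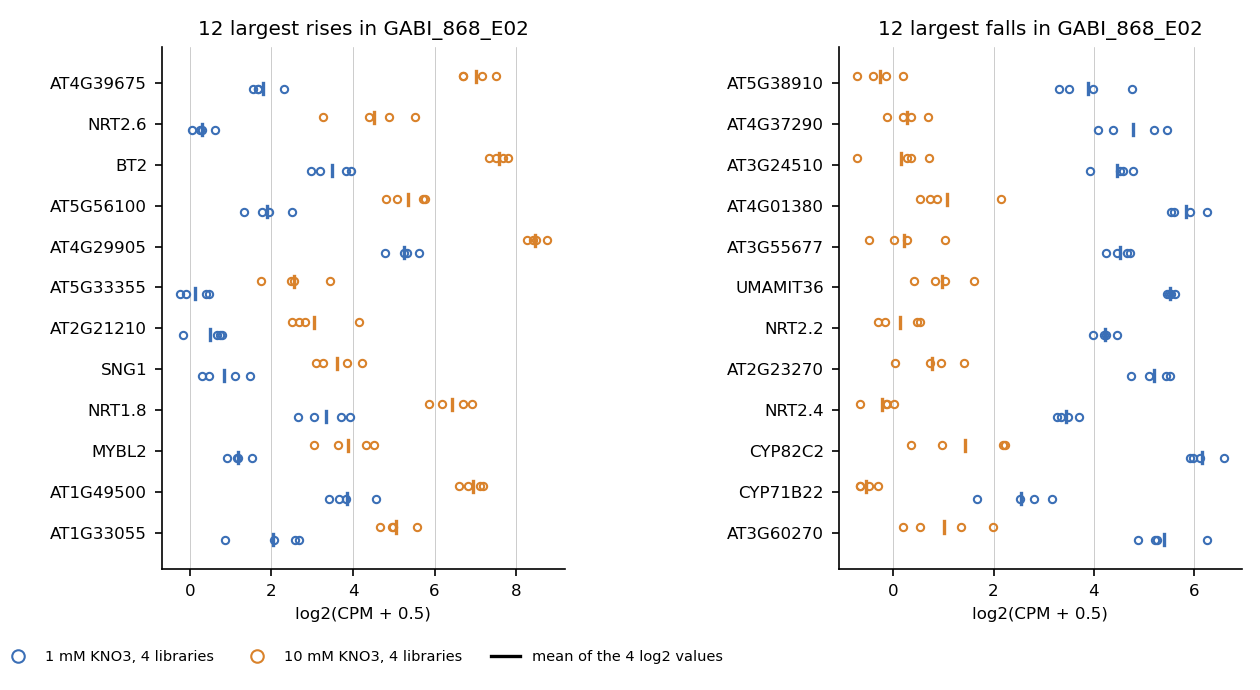
Levels of the 12 genes with the largest rise (left) and the 12 with the largest fall (right) within GABI_868_E02, among genes called whose higher group averaged at least 5 CPM and whose groups do not overlap. Each circle is 1 library on a log2(CPM + 0.5) axis, blue for 1 mM and orange for 10 mM KNO3, and the short bar is the mean of the 4 log2 values. AT4G39675 moved from a mean of 3.08 to 133 CPM and NRT2.4 from 10.5 to 0.366 CPM.

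Among called genes of at least 5 CPM in the higher group whose libraries did not overlap, the largest rise was that of AT4G39675, which encodes an uncharacterized protein. It measured 2.699, 2.43, 2.71 and 4.499 CPM at 1 mM and 103, 103.6, 182 and 144 CPM at 10 mM. The highest library at 1 mM was thus far below the lowest at 10 mM, and the log2 change was 5.45 ± 0.40 (SE, n = 4 against 4, edgeR adjusted p = 7.44e-20). BT2, a BTB and TAZ domain protein known as a hub gene of nitrogen use, measured 8.60, 13.8, 14.9 and 7.40 CPM at 1 mM and 182, 161, 205 and 221 CPM at 10 mM, a log2 change of 4.09 ± 0.25 (edgeR adjusted p = 1.12e-24). NRT2.6, a member of the NRT2 family of nitrate transporters, was at or near 1 CPM in every library at 1 mM (0.700, 0.540, 1.05 and 0.726) and at 9.18, 20.4, 45.4 and 28.8 CPM at 10 mM. Its groups did not overlap, and the libraries at 10 mM spread widely (log2 change 5.03 ± 0.60, edgeR adjusted p = 1.17e-10). NRT1.8, which retrieves nitrate from the xylem sap, rose from 14.7, 7.70, 5.76 and 12.6 CPM to 58.2, 72.1, 103 and 120 CPM (log2 change 3.12 ± 0.41, edgeR adjusted p = 2.29e-09). It overlaps a gene on the opposite strand, AT4G21670, whose own log2 change was −0.11 (edgeR adjusted p = 0.706), and the strand setting of the counting is not given in the sources used here.

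The other largest rises had roles in several places. MYBL2, a repressor of flavonoid synthesis, went from a mean of 1.81 ± 0.398 to 15.4 ± 6.70 CPM (SD, n = 4). SNG1, the enzyme that makes sinapoylmalate, went from 1.395 ± 0.725 to 12.3 ± 4.63 CPM. Both are members of the list of flavonoid and sinapate genes. Of the 8 tested 2 rose and none fell, where 8.86% of all genes rose. AT4G29905, another uncharacterized protein, had 38.1 ± 8.68 and 357 ± 52.8 CPM. AT2G21210, a SAUR-like auxin-responsive protein, rested in part on 1 library: its level at 10 mM was 5.91, 5.23, 6.56 and 17.3 CPM, against at most 1.22 CPM at 1 mM. The 12 log2 rises lay between 2.98 and 5.45, and the means of the other 12 lines for the same genes lay between 2.91 and 5.65. The genes were ranked by their change in this line, so a value above that of the other lines is favoured by the ranking, and no comparison is drawn from it.

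Under the same limits of at least 5 CPM and no overlap, the largest fall was that of AT5G38910, a cupin-domain protein, from 15.3, 26.9, 9.43 and 10.9 CPM to 0.408, 0.638, 0.257 and 0.104 CPM (log2 change −5.44 ± 0.60, edgeR adjusted p = 8.27e-12). UMAMIT36, of the UMAMIT family of amino acid exporters, was the tightest, at 48.6, 46.2, 43.5 and 45.0 CPM at 1 mM and 2.55, 1.53, 1.29 and 0.835 CPM at 10 mM (log2 change −4.86 ± 0.31, edgeR adjusted p = 1.69e-23). The other genes among the 12 include a pair of high-affinity nitrate transporters, described next, a pair of defensin-like or S1-like small secreted proteins (AT3G24510 and AT3G55677), a pair of copper-binding cupredoxin-type proteins (AT4G01380 and AT3G60270), and the cytochrome P450 genes CYP82C2 and CYP71B22. CYP82C2 acts in the synthesis of cyanogenic indole defence compounds, and its mean went from 72.2 ± 16.5 to 2.63 ± 1.77 CPM.

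NRT2.2 and NRT2.4 were the 2 nitrate transporters among the 12 falls. NRT2.4 measured 12.5, 9.73, 9.08 and 10.74 CPM at 1 mM and 0.408, 0.510, 0.129 and 0.417 CPM at 10 mM (log2 change −4.77 ± 0.43, edgeR adjusted p = 2.06e-15). NRT2.2 measured 15.4, 18.4, 17.9 and 21.6 CPM at 1 mM and 0.306, 0.893, 0.386 and 0.939 CPM at 10 mM (log2 change −4.83 ± 0.39, edgeR adjusted p = 7.18e-18). In both genes all 4 libraries at 10 mM were under 1 CPM. NRT2.2 and NRT2.1 are near-identical neighbours, so reads could be split between them. The 300 bases upstream of the annotated start of each gene are shown because both promoters hold the same short motif 3 times: GAATC on either strand, the letters bound by the NIGT1/HRS1 repressors, in capitals, along with 1 match in NRT2.2 to TGNCNCTT, part of the element bound by NLP proteins. The sequences are RefSeq's for TAIR10.1, 5′ to 3′ on the strand of the gene, NRT2.2 on the minus strand at chr1:2529121-2529420 and NRT2.4 on the plus strand at chr5:24444065-24444364.
NRT2.2: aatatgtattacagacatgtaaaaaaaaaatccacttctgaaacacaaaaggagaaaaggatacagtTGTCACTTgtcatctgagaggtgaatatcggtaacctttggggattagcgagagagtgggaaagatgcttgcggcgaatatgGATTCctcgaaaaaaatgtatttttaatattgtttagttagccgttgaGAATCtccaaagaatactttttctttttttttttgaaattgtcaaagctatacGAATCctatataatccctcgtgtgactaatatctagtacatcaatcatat
NRT2.4: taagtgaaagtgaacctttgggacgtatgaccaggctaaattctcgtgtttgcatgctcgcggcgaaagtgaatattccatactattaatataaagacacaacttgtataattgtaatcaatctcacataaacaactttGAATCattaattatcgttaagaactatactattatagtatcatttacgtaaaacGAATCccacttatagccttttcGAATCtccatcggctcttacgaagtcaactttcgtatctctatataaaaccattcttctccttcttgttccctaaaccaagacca
Among the 24 genes with the largest changes, a GAATC match in this window was found for 6 of the 12 rises and 4 of the 12 falls, and 45.4% of the windows of 19437 tested genes hold one. Windows with 3 or more such matches make up 3.40% of all. TGNCNCTT was found for 1 of 12 rises and 2 of 12 falls, against 10.5% of all windows. The longer NIGT1 motif AGANTATTC was found for none of the rises and for 1 fall, CYP71B22, against 1.4%. A match says only that the letters are present.

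Of the 25 tested genes of nitrate transport, 7 rose, 7 fell and 11 were not called, where 8.86% of all genes rose and 9.35% fell. The same shares apply to the lists below. The median log2 change of the 25 genes was 0.24 in the line and 0.05 over the other 12 lines. NRT2.2, NRT2.4 and NRT2.5 fell to near the limit of detection. NRT2.5 was at 4.40, 1.49, 1.22 and 7.11 CPM at 1 mM, and at 10 mM it was at 0 in replicates 1 and 4 and at 0.128 and 0.129 CPM in the others. NRT2.1, the main high-affinity transporter of the root, stayed far higher: it measured 776, 678, 872 and 756 CPM at 1 mM and 264, 386, 384 and 350 CPM at 10 mM (log2 change −1.16 ± 0.16, edgeR adjusted p = 1.70e-08). Its partner protein NRT3.1 fell with it, from 437 ± 57.8 to 253 ± 72.2 CPM (edgeR adjusted p = 1.49e-03). CLCA, which loads nitrate into the vacuole, rose from 49.9, 54.5, 67.9 and 55.6 CPM to 181, 166, 141 and 171 CPM (log2 change 1.53 ± 0.12, edgeR adjusted p = 1.25e-18), while CLCB, a related channel protein, fell from 80.8 to 45.0 CPM. For NRT1.1, the dual-affinity transporter and nitrate sensor, the groups overlapped (149 to 223 CPM at 1 mM, 181 to 282 CPM at 10 mM, edgeR adjusted p = 0.0738).

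**Figure D2:**
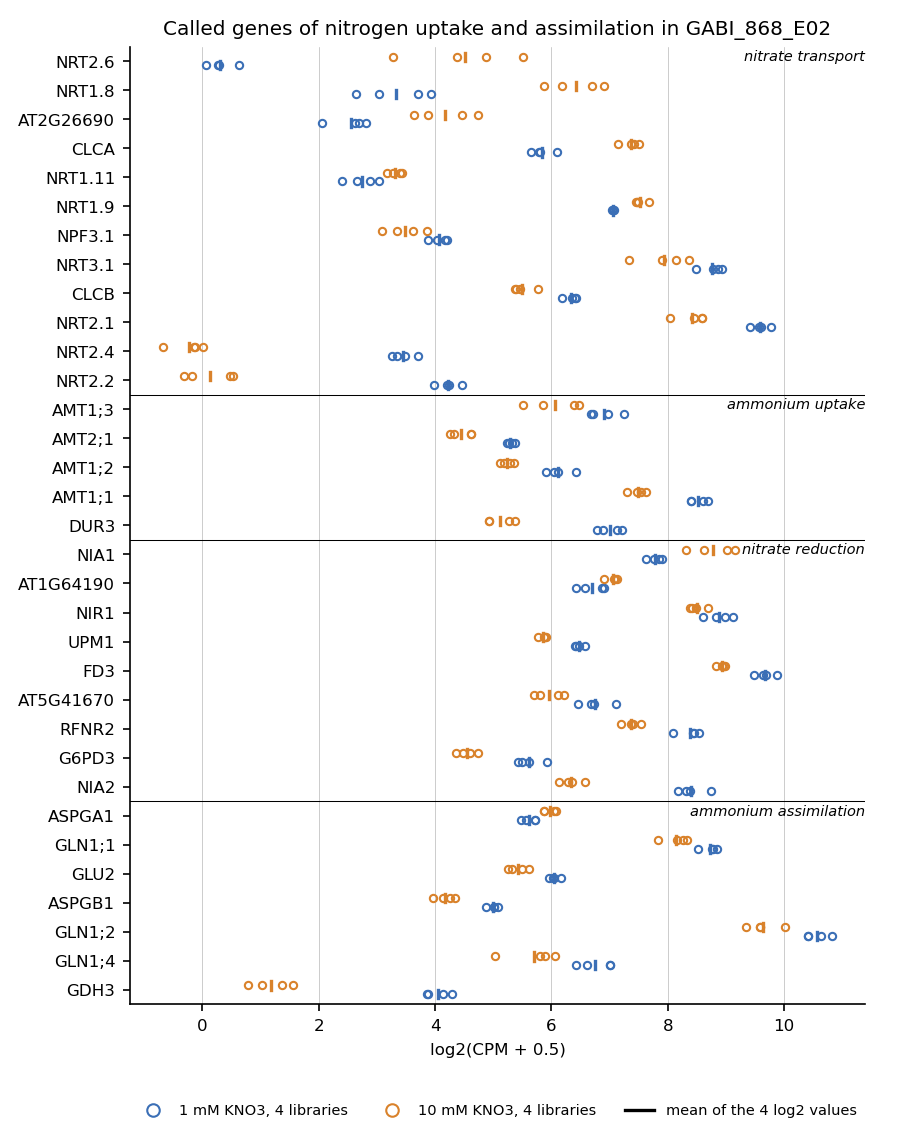
Levels of the 33 called genes of nitrate transport (12 genes), ammonium and urea uptake (5), nitrate reduction (9) and ammonium assimilation (7) whose higher group averaged at least 5 CPM, in the 8 libraries of GABI_868_E02. Circles are libraries on a log2(CPM + 0.5) axis, blue for 1 mM and orange for 10 mM KNO3, bars are means of the 4 log2 values, and lines divide the 4 lists. All 5 uptake genes for ammonium and urea lie lower at 10 mM, and the nitrate reductases NIA1 and NIA2 move in opposite directions.

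All 6 tested genes of ammonium and urea uptake fell, with a median log2 change of −0.97 in the line and −1.04 over the other lines. The call of AMT1;3, another ammonium transporter, was lost without 1 mM replicate 3 or 10 mM replicate 1 or 2. DUR3, the high-affinity urea transporter, measured 110, 148, 117 and 140 CPM at 1 mM and 40.9, 30.0, 38.1 and 29.8 CPM at 10 mM (log2 change −1.89 ± 0.15, edgeR adjusted p = 1.04e-17). AMT1;1, a main ammonium transporter, went from 369 ± 37.9 to 180 ± 17.1 CPM (edgeR adjusted p = 7.63e-09). It overlaps AT4G13505 on the opposite strand.

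Nitrate reduction was divided: of 13 tested genes 2 rose, 7 fell and 4 were not called, with a median log2 change of −0.39 (−0.30 over the other lines). The nitrate reductases moved apart. NIA1 rose from 197, 238, 230 and 216 CPM to 318, 395, 518 and 569 CPM (log2 change 1.03 ± 0.18, edgeR adjusted p = 2.73e-06), and NIA2 fell from 290, 332, 317 and 427 CPM to 69.7, 95.04, 81.6 and 77.3 CPM (log2 change −2.08 ± 0.16, edgeR adjusted p = 6.76e-19). Neither gene's groups overlapped. Nitrite reductase NIR1 passed the test narrowly, with overlapping groups (476 ± 73.6 and 362 ± 35.2 CPM, edgeR adjusted p = 0.0481), and was no longer called without 1 mM replicate 1, 3 or 4 or without 10 mM replicate 1, 2 or 4. The genes that deliver electrons to it in roots, ferredoxin FD3 and the ferredoxin reductase RFNR2, fell from 819 to 486 CPM and from 334 to 166 CPM, and UPM1, which makes its sirohaem cofactor, fell from 88.4 to 57.4 CPM.

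In ammonium assimilation 1 of 17 tested genes rose, 6 fell and 10 were not called (median log2 change −0.18, −0.32 over the other lines). GDH3, a glutamate dehydrogenase, fell furthest, from 14.1, 17.0, 14.2 and 19.2 CPM to 1.22, 1.53, 2.44 and 2.09 CPM (log2 change −3.14 ± 0.23, edgeR adjusted p = 1.42e-19). It overlaps a gene on the opposite strand. The cytosolic glutamine synthetases GLN1;2, GLN1;4 and GLN1;1 all fell, GLN1;2 from 1527 ± 216 to 805 ± 163 CPM. ASPGA1, an asparaginase, was the gene that rose, from 48.7 to 62.2 CPM. Of the 15 tested amino acid transporters 7 fell and 1 rose, UMAMIT33, from 0.584 to 4.03 CPM, and the median was −0.43.

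Among 31 tested nitrate regulators 11 rose, 4 fell and 16 were not called, with a median log2 change of 0.16 in the line and 0.39 over the other lines. Several repressors rose and AT4G37180, of the NIGT1/HRS1 family by its place in the list, was not called (log2 change 0.33). LBD39 measured 16.4, 17.7, 21.7 and 16.4 CPM at 1 mM and 58.5, 48.2, 74.7 and 84.7 CPM at 10 mM (log2 change 1.88 ± 0.22, edgeR adjusted p = 3.30e-11), HRS1 went from 25.6 ± 3.53 to 64.1 ± 6.22 CPM, and LBD37 and LBD38 went from 58.1 to 81.9 CPM and from 36.0 to 62.0 CPM. BT1, related to BT2, rose from 22.7 ± 4.46 to 140 ± 23.3 CPM. ANR1 and NAC4, regulators of lateral root growth, rose from 0.762 to 2.36 CPM and from 7.40 to 27.7 CPM, NAC4 not being called without 10 mM replicate 4. The NLP genes did not move as 1 group. NLP3 fell from 9.70, 10.404, 12.3 and 9.14 CPM to 1.122, 1.15, 0.643 and 0.939 CPM (log2 change −3.41 ± 0.30, edgeR adjusted p = 9.18e-16), NLP8 fell from 16.1 to 3.80 CPM, and NLP9 had 23 counts over the 4 libraries at 1 mM and 0 at 10 mM. NLP7, the main nitrate sensor among them, measured 47.7 ± 6.16 and 44.3 ± 4.69 CPM, with overlapping groups (edgeR adjusted p = 0.672).

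In the hormone and peptide lists the called genes are read against the 18.2% called over all genes. Of 16 tested cytokinin genes 2 rose and 1 fell. IPT5, which makes cytokinin, rose from 10.9 ± 2.33 to 28.5 ± 6.83 CPM (log2 change 1.38 ± 0.19, edgeR adjusted p = 1.82e-08). Of the list 1 gene was called without 1 mM replicate 1 or 10 mM replicate 1, and 7 with the strip in the fit. Of 12 auxin genes 2 rose, IAA2 (49.5 to 98.9 CPM) and GH3.3 (0.413 to 1.37 CPM), and 2 fell, TAR2 and PIN7. Of 8 jasmonate genes 2 fell, JAZ1 and LOX4, and none rose. Of 7 peptide signals CLE1 rose, from 1.79 to 5.78 CPM, and CLE4, AT3G50610 and AT5G66815 fell. PIN7 was not called without 1 mM replicate 1 or 10 mM replicate 3, nor AT3G50610 without replicate 4 of either concentration.

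Of 8 tested camalexin and defence genes 6 fell, none rose and 2 were not called, where 9.35% of all genes fell, with a median log2 change of −1.901 in the line and −1.86 over the other lines. CYP71A12, a P450 of indolic defence compounds, measured 301, 435, 261 and 348 CPM at 1 mM and 15.5, 41.5, 13.5 and 10.2 CPM at 10 mM (log2 change −4.07 ± 0.44, edgeR adjusted p = 3.48e-12). Reads could be split with its close copy CYP71A13, which went from 19.4 ± 3.87 to 0.809 ± 0.299 CPM. PAD3, the last enzyme of camalexin synthesis, went from 119 ± 15.3 to 10.9 ± 2.54 CPM. WRKY33, a regulator of this pathway, went from 32.5 to 9.68 CPM. In the list of indole glucosinolates 10 of 21 tested genes fell and none rose (median −0.36, −0.47 over the other lines). CYP81F2, which modifies indole glucosinolates, went from 77.4, 76.3, 54.3 and 110 CPM to 2.65, 9.57, 3.34 and 3.65 CPM (log2 change −4.07 ± 0.48, edgeR adjusted p = 9.06e-11). The regulators MYB51 and MYB122 fell from 21.8 to 3.83 CPM and from 26.9 to 4.75 CPM, and the synthesis enzyme CYP79B2 from 227 to 79.0 CPM.

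Aliphatic glucosinolates, made from methionine, are the pathway that MYB28 and MYB29 are known to activate. Of the 29 tested genes of this list 10 fell, none rose and 19 were not called, where 9.35% of all genes fell. The median log2 change was −0.45 in the line, −0.18 over the other 12 lines and 0.01 over all genes tested in the line. Sulfotransferase SOT17 measured 97.1, 121, 107 and 120 CPM at 1 mM and 35.8, 50.3, 52.8 and 53.5 CPM at 10 mM (log2 change −1.21 ± 0.17, edgeR adjusted p = 9.56e-09). FMOGSOX3, which oxidizes the side chain, went from 5.30, 3.11, 4.98 and 4.64 CPM to 1.122, 1.91, 0.514 and 1.15 CPM (log2 change −1.94 ± 0.27, edgeR adjusted p = 1.41e-08). The called falls reach from side-chain elongation (IIL1, IMD1) through the shared core enzymes (GSTU20, GGP1, SUR1, UGT74B1, SOT17) to side-chain modification (FMOGSOX3, FMOGSOX5, AOP2). The core enzymes SUR1, UGT74B1 and GGP1 also serve indole glucosinolates. Some of these calls rest on single libraries. AOP2 was not called without 1 mM replicate 3, its highest library, or without 10 mM replicate 1, 2 or 4. IMD1 was not called without replicate 1 of either concentration or 10 mM replicate 2, IIL1 without 1 mM replicate 2 and FMOGSOX5 without 1 mM replicate 4. With the strip in the fit, which has the limit given above, the count was larger, 20 of the 29 falling and none rising. Other elongation genes were not called: MAM1 went from 18.4 to 15.7 CPM, MAM3 from 133 to 119 CPM and BCAT4 from 292 to 194 CPM (overlapping groups, edgeR adjusted p = 0.0965). Summed over the 29 genes, the level was 2852 to 3399 CPM in the 4 libraries at 1 mM and 1822 to 2315 CPM in the 4 at 10 mM.

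**Figure D3:**
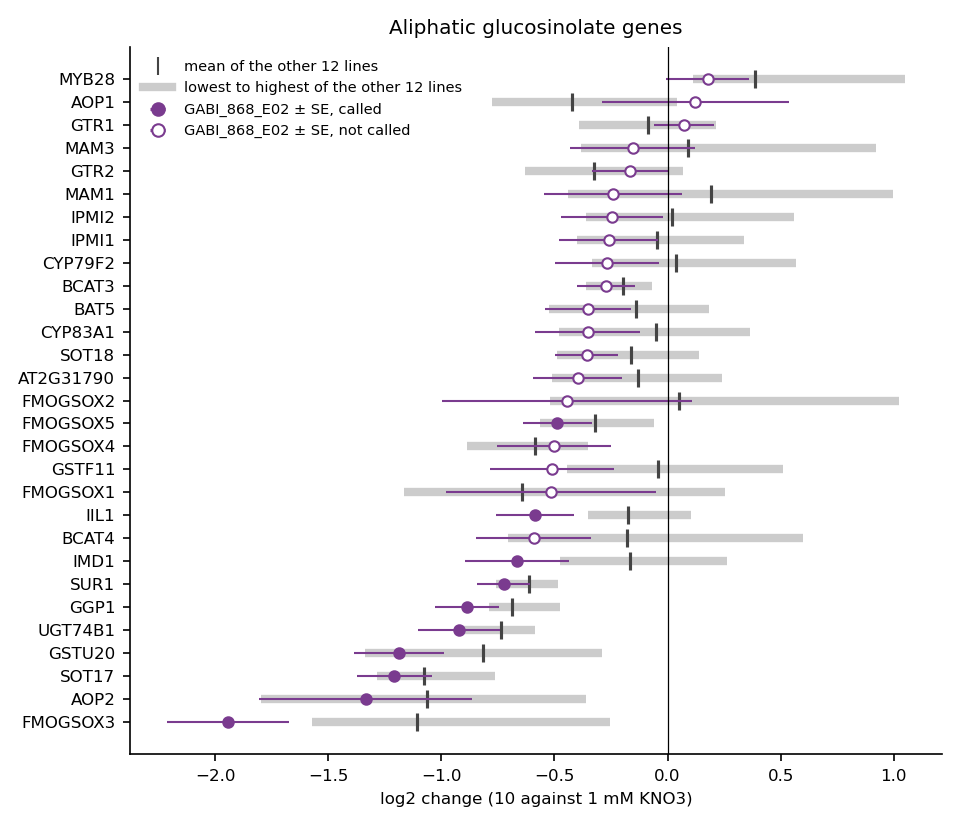
Log2 change from 1 to 10 mM KNO3 of the 29 tested genes of aliphatic glucosinolate synthesis. Purple points are GABI_868_E02 with their standard error, filled where called; the black tick is the mean of the other 12 lines and the grey bar spans their lowest and highest line. FMOGSOX3 (−1.94), UGT74B1 (−0.92), GGP1 (−0.89), IMD1 (−0.66), IIL1 (−0.59) and GSTF11 (−0.51, not called) lie below the lowest of the other lines. The share of all tested genes in such a position is not given here, so no difference is read from it.

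Against the other lines, 24 of the 29 genes (82.8%) had a more negative change in GABI_868_E02 than in their mean, where 49.7% of all tested genes did, and the median difference was −0.21. Other lists were as uneven: 13 of 15 photosynthetic markers (86.7%), 11 of 13 nitrate reduction genes (84.6%) and 13 of 16 cytokinin genes (81.3%) had the more negative change, and 1 of 10 xylem markers had it. No difference was called. An unadjusted p under 0.05 was found for 3 of the 29, FMOGSOX3 (difference −0.84, 95% interval −1.395 to −0.278), IIL1 (−0.41, −0.76 to −0.06) and IMD1 (−0.50, −0.97 to −0.03), where 4.5% of all tested genes had one. The count of 3 became 1 without 10 mM replicate 2, 6 without 10 mM replicate 3 or 4, and 11 with the strip in the fit, with no difference called in any of these. IIL1 and IMD1 are named here after their values were seen. The line had the lowest median of the 13 lines for this list, next to SALK_100002 at −0.40 and far from GABI_699B09 at 0.10. GABI_868_E02 also had the highest median of the 13 for the iron list and for the potassium list. By concentration, the level of the list against the other lines differed by a median log2 of 0.06 at 1 mM and −0.15 at 10 mM, with 8 and 21 of 29 genes lower in the line and no gene called at either. The mean summed level at 10 mM, 2080 ± 270 CPM (SD, n = 4), was below that of each of the other 12 lines (2126 to 2479 CPM), and at 1 mM, 3080 ± 246 CPM, it was above 10 of the 12 (2648 to 3240 CPM). Summed levels of other lists lay beyond all 12 other lines too. At 10 mM those of the xylem and endodermis markers were above them. At 1 mM those of amino acid transport and cytokinin were above them, and that of the defence genes was below. The genes share enzymes and regulators and are not independent of each other.

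Genes of other nutrients were called as well, to be read against the 18.2% called over all genes, 8.86% rising and 9.35% falling. Of 22 tested iron genes 5 rose and 4 fell. The calls of AHA2, FER1, BHLH38 and NRAMP1 were lost in 5, 4, 2 and 2 of the 8 fits that leave out 1 library. The uptake genes IRT1, the iron transporter, and FRO2, the ferric reductase, rose from 2.31 ± 0.925 to 12.6 ± 4.82 CPM (edgeR adjusted p = 7.05e-06) and from 2.65 ± 0.773 to 9.80 ± 4.38 CPM. F6H1, which makes iron-mobilizing coumarins, fell from 243, 456, 242 and 346 CPM to 55.4, 68.1, 50.5 and 64.9 CPM (log2 change −2.43 ± 0.23, edgeR adjusted p = 1.31e-14). Of 19 sulfate genes 2 rose and 5 fell: the transporter SULTR1;2 rose from 19.9 to 53.8 CPM, and APS1, APR1, APK1, APK2 and SULTR2;1 fell, APR1 from 131 to 63.0 CPM. Of 21 phosphate genes 5 rose and 4 fell, among them PHO1;H1 (1.38 to 7.57 CPM) and SPX3 (5.08 to 0.917 CPM). Of 5 potassium genes HAK5, the high-affinity potassium transporter, fell from 13.6, 21.5, 18.9 and 36.6 CPM to 2.75, 4.85, 2.06 and 2.09 CPM (log2 change −2.94 ± 0.42, edgeR adjusted p = 3.29e-08), and SKOR, which loads potassium into the xylem, rose from 3.33 ± 0.573 to 17.3 ± 5.40 CPM. The supply of potassium differed between the media too. Of 14 mitochondrial stress genes 8 fell and none rose, among them the alternative oxidase AOX1A (65.7 ± 9.98 to 31.7 ± 1.55 CPM, edgeR adjusted p = 3.46e-08) and AOX1D, which had 1.92 to 5.23 CPM at 1 mM and 0.204, 0.128, 0 and 0 CPM at 10 mM. Of 11 low-oxygen genes 3 fell (PDC1, ADH1 and HB1) and 1 rose (HRE1, 19.9 to 41.5 CPM). Of 5 glutaredoxins of the CC type 1 rose and 1 fell, and of the 8 fits that leave out 1 library both calls stood only in that without 1 mM replicate 2.

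Markers of tissues and cell types were read in the same way, against the same shares of all genes. The summed level of 15 markers of photosynthetic tissue was 104.1 to 159 CPM at 1 mM and 230 to 282 CPM at 10 mM, and 8 of them rose and none fell, for example LHCA4, of the light-harvesting antenna, from 61.1 ± 12.0 to 128 ± 8.39 CPM. Of 12 root hair markers 6 fell and none rose, with a summed level of 426 to 588 CPM at 1 mM and 324 to 377 CPM at 10 mM. Of 10 xylem markers 4 rose and none fell (475 to 614 CPM and 700 to 863 CPM). The 17 endodermis markers were split. CASP5, of the Casparian strip, rose from 6.70, 9.59, 12.9 and 16.7 CPM to 91.1, 64.3, 65.7 and 64.2 CPM (log2 change 2.65 ± 0.30, edgeR adjusted p = 1.26e-11) with CASP2, CASP4, ESB1 and PER64, while the suberin genes FAR1, FAR4, FAR5 and CYP86B1 fell. None of 12 markers of root cap and meristem and none of 4 phloem markers were called. Single libraries moved several of these counts. The photosynthetic markers called became 5 without 1 mM replicate 4 or 10 mM replicate 3, and the root hair markers 3 without 1 mM replicate 3 or 4 or 10 mM replicate 1. The xylem markers became 2 without 1 mM replicate 2 or 10 mM replicate 1, 1 phloem marker was called without 1 mM replicate 3 or 10 mM replicate 4, and 1 root cap and meristem marker without 1 mM replicate 3. ESB1 was not called without 1 mM replicate 1 or 10 mM replicate 2 or 3, nor PER64 without 1 mM replicate 2 or 3 or 10 mM replicate 4. The part of these shifts in the results above was not tested.

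**Figure D4:**
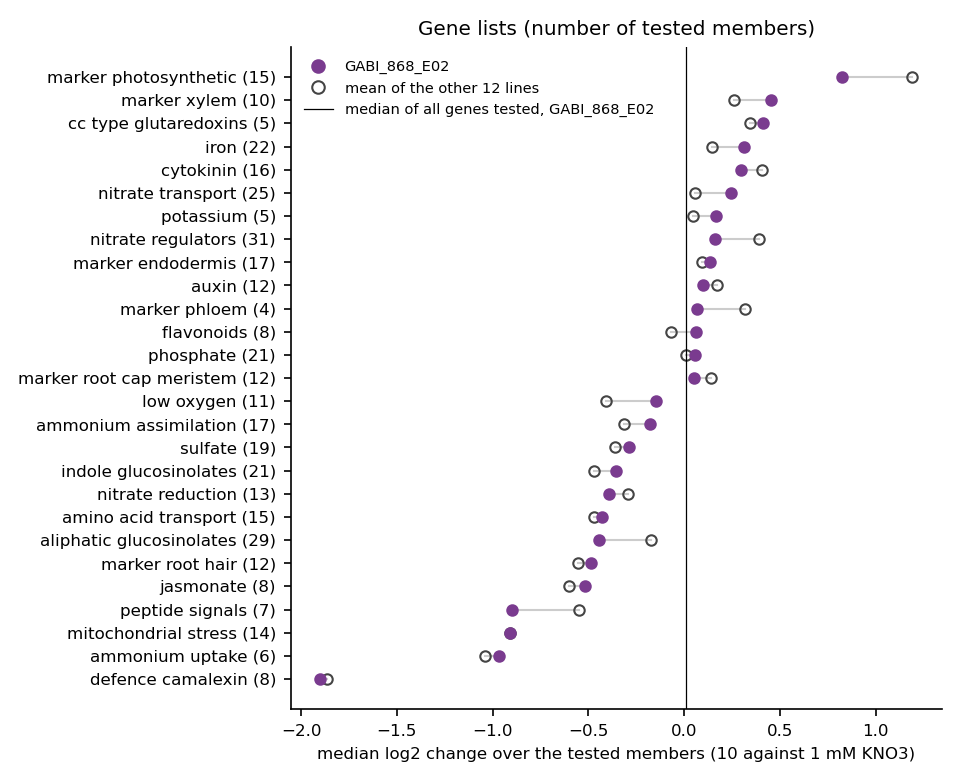
Median log2 change from 1 to 10 mM KNO3 over the tested members of 27 gene lists, with the number of members in brackets. Purple points are GABI_868_E02, open circles are the mean of the other 12 lines, and the vertical line is the median of all genes tested in the line (0.01). The lowest medians are those of the defence and camalexin genes (−1.901) and of ammonium uptake (−0.97), and the highest is that of the photosynthetic markers (0.82 in the line and 1.19 over the other lines).

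The response was set against the mean of the other 12 lines, gene by gene. Of the 3581 genes called in the line, 3562 (99.5%) had the same sign in the other lines, as had all 1143 with at least a 2-fold change, and 87 were not called over the other lines. That mean rests on 96 libraries and 63.2% of the genes were called in it, so the count called in 1 line is not comparable with it. Over the 1264 genes that changed at least 2-fold in the other lines (6.43% of those tested), the log2 change in GABI_868_E02 was a median of 0.964 times theirs, with quartiles of 0.814 and 1.116. The median was 0.926 for the 433 genes that rose in the other lines and 0.981 for the 831 that fell. Of the 1264 genes, 1259 (99.6%) had the same sign in the line. Treated the same way, each against its own other 12 lines, the 13 lines ran from 0.883 (SALK_012253) to 1.07 (Col), and GABI_868_E02 was the fifth from the lowest. Taking 1 library at 10 mM at a time against the mean of the 4 at 1 mM, on log2 CPM with edgeR's default prior count, which draws low values together and lowers such ratios, the ratio was 0.855, 0.784, 0.941 and 0.920 in replicates 1 to 4 (SD 0.0707). All 4 of these ratios were below 1, and they cannot be set against the fitted 0.964, which comes from another calculation.

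**Figure D5:**
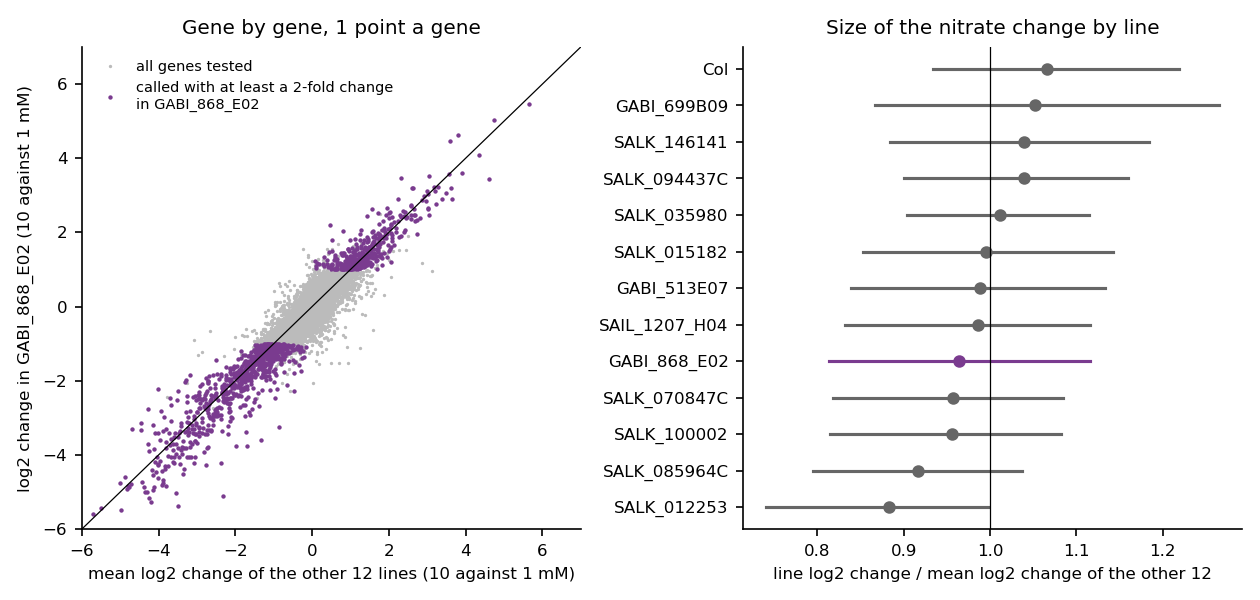
Left: log2 change from 1 to 10 mM KNO3 in GABI_868_E02 against the mean of the other 12 lines, 1 point a gene, with genes called at least 2-fold in the line in purple and equality as a line; 3 genes lie outside the axes. Right: the ratio of each line's log2 change to the mean of its other 12 lines over genes changed at least 2-fold in those, as median (point) and quartiles (bar), with GABI_868_E02 in purple at 0.964.

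No gene of 19664 (0%) was called for a difference between the response of GABI_868_E02 and that of the other 12 lines. In this edgeR quasi-likelihood test 885 genes (4.5%) had an unadjusted p under 0.05. The median SE of the log2 difference was 0.187. Among simulated differences, 94% of those of 2-fold were called, and at the smaller sizes simulated 42% and 6%. Small differences could thus go uncalled, and the lack of calls does not show that the responses were equal. The 12 genes with the smallest p are therefore given as values that did not pass. The smallest belonged to TAS1C, a non-coding precursor of trans-acting small RNAs. It measured 20.4, 13.8, 14.1 and 20.0 CPM at 1 mM and 10.2, 9.70, 11.1 and 13.4 CPM at 10 mM, and its groups did not overlap. Its log2 change was −0.62 in the line and 0.12 over the other lines (−0.12 to 0.34 by line), a difference of −0.74 (95% interval −1.08 to −0.41, edgeR adjusted p = 0.723). TAS1C lies on the minus strand of chromosome 2 and overlaps AT2G39670 on the other strand, whose level was 17.4 and 18.5 CPM.

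The next were AT3G47080, with a tetratricopeptide repeat, which went from a mean of 5.06 to 7.72 CPM in the line (log2 change 0.59) against −0.17 over the other lines, and AT1G05340, a small stress-tolerance membrane protein, at 0.52 against −0.13. The peroxidase gene AT2G38390 measured 668, 643, 660 and 595 CPM at 1 mM and 594, 816, 810 and 844 CPM at 10 mM. Its change in the line, 0.26, was below that of each of the other 12 lines (0.49 to 1.02), and at 10 mM replicate 1 stood below the others. LTP2, a lipid transfer protein, had nearly equal means in the line (20.9 ± 3.17 and 20.6 ± 3.27 CPM, log2 change −0.02 ± 0.18) and a mean log2 change of 0.60 in the other lines. The remaining 7 were AT3G44740, AT3G19240, AT3G43740, AT1G61960, NPQ1, AT1G27595 and AT1G57600, with differences between −0.67 and 0.68. All but TAS1C had an adjusted p of 1.00 to 3 digits.

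Among the listed genes, the log2 change of LBD38 was 0.78 ± 0.16 (SE) in GABI_868_E02 against 1.23 in the mean of the other lines, a difference of −0.44 (95% interval −0.77 to −0.12), and all 12 other lines had the larger rise. For LBD39 and BT1 as well, each of the other 12 lines had the larger rise (differences −0.38, −0.82 to 0.05, and −0.39, −0.93 to 0.15). The margin for BT1 was small, a log2 change of 2.622 in GABI_868_E02 against 2.627 in SALK_085964C. The log2 change of GLN1;4 was −1.04 against −1.49 (difference 0.45, 0.12 to 0.78), and each of the other 12 lines was below it. CASP5 had a difference of 0.70 (0.10 to 1.29), and AT4G37180 one of −0.52 (−0.85 to −0.18). None of these had an adjusted p under 0.05 over all genes. The share of all tested genes for which the line lies beyond all 12 others is not given here. No difference is therefore read from such a position, for these genes or for the peroxidase gene described above. The lower medians of regulators (0.16 against 0.39) and photosynthetic markers (0.82 against 1.19) and the more negative median of aliphatic glucosinolate genes are descriptions of the same kind.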

How the data were processed

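Roots of 13 lines at 1 and 10 mM KNO3 gave 4 replicate libraries a group, each sequenced in 2 runs. The deposited values are raw counts per locus, made by the authors from 3′ tags, and the tools named in the submitters' processing notes are Bowtie, HTSeq, SAMtools, FastQC and limma, with the TAIR10 build. Their roles and the strand setting are not given in the sources used here. The 2 runs of each library were summed and the 279 organelle loci, which run 2 lists at 0, were left out. Nothing in the labels says that replicates came from separate experiments beyond separate plates, so p-values measure the spread between these samples.

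Genes passing filterByExpr (minimum count 10) were fitted with edgeR 4.0.16 in R 4.3.3 (quasi-likelihood, TMM factors, 1 coefficient for each of 26 groups), with Benjamini-Hochberg adjustment over all 19664 genes at 0.05. Fold changes of genes near 0 depend on edgeR's prior count. The SE of a log2 change was worked back from the test, as its absolute value divided by the square root of the F statistic. The 95% intervals follow from that SE under a normal distribution. CPM are TMM-scaled. Alternatives included limma-voom (limma 3.58.1) and DESeq2 1.42.0. The steps were tested on simulated data. Counts of any 2 libraries of 1 group, and of the 2 runs of a library, differed by more than sampling noise (chi-square per degree of freedom 6.56 to 22.4). At 1 mM pairs of replicates gave 8.22 to 10.3, and run 1 against run 2 gave more, 12.5 to 21.5. At 10 mM these ranges overlapped, with 6.56 to 22.1 for replicates and 7.57 to 22.4 for runs. The cause of the difference between runs was not tested. The 27 gene lists hold 425 members, of which 383 were tested. The 41 others found in the files had at most 21 counts in any library of the line.

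The members and lists were chosen with earlier results of these data known. The rule named the 12 largest rises and 12 largest falls among called, non-overlapping genes of at least 5 CPM, the 12 smallest p-values for the difference from the other lines, and in each list the 4 largest changes and the smallest p for the difference. Other list members named were chosen after their values were seen.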

Additional observations from a re-analysis of the deposited data

Results flagged for a closer look

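In the 8 libraries of GABI_868_E02, 301 sets of 4 values from 151 named genes were searched for a single library far from the rest (above Dixon's 95% critical value), and 15 sets (4.98%) held one, where chance gives about 1 in 20. No explanation was tested for any of them. At 1 mM, replicate 4 stood apart in 3 genes: AT4G39675 was high at 4.499 CPM (next 2.71), NLP9 was high at 1.02 CPM (next 0.600) and the cytokinin oxidase CKX4 was low at 3.92 CPM (next 6.55). Replicate 3 was high in AOP2 at 2.18 CPM (next 1.22), and replicate 1 held the only reads of NRT2.3 at 1 mM, 0.300 CPM. At 10 mM, replicate 2 was high in 4 genes: CYP71A12 at 41.5 CPM (next 15.5), CYP81F2 at 9.57 CPM (next 3.65), AT4G01380 at 3.95 CPM (next 1.33) and AT3G12900, an iron-deficiency oxygenase, at 3.06 CPM (next 0.771). Replicate 1 was high in CASP5 at 91.1 CPM (next 65.7), in AT4G37180 at 15.9 CPM (next 12.1) and in AMT1;5 at 0.204 CPM (the others at 0), and low in the peroxidase gene AT2G38390 at 594 CPM (next 810). Replicate 4 was high in AT2G21210 at 17.3 CPM (next 6.56), and replicate 3 was low in the root hair gene COW1 at 41.0 CPM (next 50.9).

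Organelle loci took no part in the comparisons. In run 1 they held 0.289 to 0.498% of the counts of each library of the line, and run 2 lists all of them at 0, so the difference between runs lies in the deposited tables and was not tested.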

How the results depend on the processing

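The 3581 genes called within GABI_868_E02 became 1810 with run 1 only and 1143 when a change of at least 2-fold was also asked for, and lay between 2463 (run 2 only) and 4029 (strip as a covariate) under the other settings, 2695 to 3405 when 1 library was left out; DESeq2 called 3624 and limma-voom 3597. The share that rose, 48.7%, stayed between 45.6% and 49.3%. A fit of the 8 libraries of the line alone tested 18418 genes and called 3158, of which 2902 were among the 3581. No difference from the other lines was called under any setting (510 to 1291 at an unadjusted p under 0.05; DESeq2 871, limma-voom 927) except against Col alone, where 1663 had an unadjusted p under 0.05 and 1 was called, PHYA, the phytochrome A photoreceptor, named after its value was seen (0.90 ± 0.18 SE, edgeR adjusted p = 0.0365). The median ratio of 0.964 was 0.928 to 1.00 with 1 library left out. Against Col alone it was 0.826, over the 1459 genes called with at least a 2-fold change in Col itself. Choosing genes on the Col libraries favours large changes there and lowers the ratio, so 0.826 cannot be set against 0.964. Same-numbered libraries of the line did not deviate together (correlations −0.147 to 0.0566, and −0.140 to 0.143 for different numbers). The labels do not say whether the numbers pair samples, and such correlations cannot settle it. The replicate block gave 3383 calls, 0 differences and a ratio of 0.969. For 10 mM replicate 3 of SALK_085964C and SALK_035980 the deposited names appear crossed against the labels, which were followed. Leaving both libraries out gave 3540 calls within GABI_868_E02 and exchanging them gave 3598, with 0 differences in each. Values given above for these 2 lines rest on the labels. No named gene that was called changed direction. Among genes not called, the change in the line turned to −0.028 for SEOR1, 0.126 for SUC2 and −0.21 for MYB28 with run 1 only, to −0.0268 for LBD18 with run 2 only, and to 0.114 for SUC2 and −0.0842 for MYB28 with the strip; SUC2 lay between −0.117 and 0.123 with 1 library left out. The difference from the other lines turned to 0.0544 for SPX4 with run 2 only and to 0.32 for NRT2.3 with limma-voom, and with 1 library left out ran from −1.21 to 2.00 for NRT2.3, −1.36 to 0.19 for AT4G15680 and −0.88 to 1.77 for AMT1;5, all with few reads; the cause was not tested. Of 184 calls of named genes, 40 were lost with run 1 only, 26 with run 2 only, 11 to 19 with 1 library left out and at most 15 under any other setting. A gene that no longer passed the filter under a setting was not counted as lost, so these are lower limits. Run 1 alone called 2 auxin genes (4 with both runs), 0 glutaredoxins (2), 1 cytokinin gene (3), 5 iron genes (9), 4 photosynthetic (8), 3 root hair (6) and 1 root cap or meristem marker (0). Run 2 alone called 2 auxin genes, 1 glutaredoxin, 1 jasmonate gene (2), 5 photosynthetic markers and 1 xylem marker (4). With the strip, 20 aliphatic glucosinolate genes (10 without it), 7 cytokinin genes, 4 jasmonate genes and 1 glutaredoxin were called. That fit separates strip from nitrate only through the few strips that held both concentrations.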
